A study of Mus musculus with 108 samples.

Results

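The loci of 5 ETS transcription factors of endothelium and blood, Fli1, Erg, Etv2, Elk3 and Ets1, were followed through a reporter screen for enhancers and promoters in differentiating mouse embryonic stem cells. A locus was the gene body and 100 kb on each side (GENCODE, mm10), and its members were all sorted and plasmid fragments that overlapped it. Fli1 and Ets1 lie next to each other on chromosome 9, and a site in both windows went to the gene with the nearest start. Overlapping sorted fragments were merged into sites, distal and promoter fragments apart, which gave 119 sites of 76765 in all and 1796 distinct fragments of 1176712.

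In the screen, open chromatin fragments released by Tn5 were cloned before an HSP68 minimal promoter and a Venus-YFP gene, first in the entry vector pDONR and then in the reporter vector pSKB. The pSKB library was integrated at Hprt in HM-1 cells, a mouse ES cell line, which were then differentiated in serum. At each of 5 stages, 5 replicates were sorted by YFP. Replicates 1 to 4 were split over 4 gates (Negative, Low, Medium, High) and replicate 5 over 3 (Negative, Low, Medium/High), for 95 libraries. The 10 plasmid lists (1 per stage and vector) and 3 PCR lists of HM-1 cells without a reporter were reference sets.

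The groups were ES cells, FLK1+ hemangioblasts (HB), early hemogenic endothelium (HE1, KIT+ TIE2+ CD41-), late hemogenic endothelium (HE2, KIT+ TIE2+ CD41+) and hematopoietic progenitors (HP, KIT+ TIE2- CD41+). All groups shared the HM-1 line, the reporter at Hprt and the serum differentiation. All fragments thus acted on the same minimal promoter at the same position, outside their own locus, and the stages were not checked against expression here. Positive cells below are the union of the Low, Medium, High and Medium/High gates of a replicate and stage. Nothing stated whether replicates were separate cultures, so p-values measure only the spread between these samples.

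ETS factors bind DNA through a winged helix-turn-helix domain that reads a GGAA core, and they act in combination with other factors such as GATA, SCL/TAL1 and RUNX1. Etv2 is expressed briefly in mesoderm and is needed to form endothelial and blood cells there. Fli1 and Erg are closely related activators that maintain endothelial and blood stem cell genes, Ets1 acts in endothelium and lymphoid cells, and Elk3 is a ternary complex factor that works with serum response factor and can repress. The screen asks whether a stretch of DNA can drive a reporter at a stage, not whether these genes were expressed.

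Sites are numbered along the chromosome within each locus, with d for distal and p for promoter. The distal sites with a fragment in most positive sets are printed below, since most values that follow refer to them. Each is the central 300 bases of the site (GRCm38.p6, plus strand), and capitals mark an ETS match, CCGGAA or CAGGAA on either strand. The sites are Fli1_d6 (chr9:32405215-32405514, intergenic), Erg_d6 (chr16:95347261-95347560, intergenic), Etv2_d6 (chr7:30717385-30717684, an intron of Atp4a), Elk3_d15 (chr10:93375346-93375645, intergenic) and Ets1_d3 (chr9:32607271-32607570, intergenic).
Fli1_d6: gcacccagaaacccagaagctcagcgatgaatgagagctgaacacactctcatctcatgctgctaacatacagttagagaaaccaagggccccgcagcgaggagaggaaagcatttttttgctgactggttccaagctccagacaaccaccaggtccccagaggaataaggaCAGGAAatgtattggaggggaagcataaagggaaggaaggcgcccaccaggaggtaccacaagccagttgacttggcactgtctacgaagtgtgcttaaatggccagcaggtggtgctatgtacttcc
Erg_d6: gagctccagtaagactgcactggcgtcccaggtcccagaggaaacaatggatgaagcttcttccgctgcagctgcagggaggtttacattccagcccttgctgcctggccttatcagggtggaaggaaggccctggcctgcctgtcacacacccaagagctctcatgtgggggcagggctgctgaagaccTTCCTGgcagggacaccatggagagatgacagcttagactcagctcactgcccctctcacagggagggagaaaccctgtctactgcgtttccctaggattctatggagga
Etv2_d6: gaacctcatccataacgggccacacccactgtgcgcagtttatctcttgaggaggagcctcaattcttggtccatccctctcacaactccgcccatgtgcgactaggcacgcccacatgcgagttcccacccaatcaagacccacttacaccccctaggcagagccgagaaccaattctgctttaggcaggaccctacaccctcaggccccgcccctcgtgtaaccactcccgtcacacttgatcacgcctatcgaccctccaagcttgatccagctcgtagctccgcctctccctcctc
Elk3_d15: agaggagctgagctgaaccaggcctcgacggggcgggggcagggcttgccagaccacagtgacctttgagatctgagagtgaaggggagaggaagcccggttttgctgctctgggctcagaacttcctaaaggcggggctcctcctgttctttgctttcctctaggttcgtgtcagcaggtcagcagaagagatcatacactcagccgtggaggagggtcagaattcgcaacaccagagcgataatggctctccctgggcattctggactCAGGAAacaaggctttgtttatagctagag
Ets1_d3: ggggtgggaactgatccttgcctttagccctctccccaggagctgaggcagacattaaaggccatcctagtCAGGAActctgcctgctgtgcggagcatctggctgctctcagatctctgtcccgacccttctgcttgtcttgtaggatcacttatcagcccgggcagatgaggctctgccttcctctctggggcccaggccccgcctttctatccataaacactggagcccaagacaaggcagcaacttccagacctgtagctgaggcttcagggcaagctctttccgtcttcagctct

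An ETS match stood in 4 of these 5 windows and not in Etv2_d6. The same letters were found in 49.1% of the 58911 distal sites read the same way, so the match is common. A GATA match (AGATAA or TGATAA) stood in Erg_d6, Etv2_d6 and Ets1_d3 and in 27.9% of distal sites. A RUNX match (TGTGGT or TGCGGT) stood in Fli1_d6 and Elk3_d15 and in 28.9% of distal sites. An E-box (CAGNTG) stood in Fli1_d6, Erg_d6 and Ets1_d3 and in 60.9% of distal sites. TEAD (GGAATG) and SOX (AACAAT) matches stood in Erg_d6 and in 19.6% and 13.6% of distal sites. RBPJ (GTGGGAA) stood in Etv2_d6 and Ets1_d3 and in 7.96% of distal sites. AP-1 (TGANTCA) and OCT (TGCAAAT) stood in none of these windows and in 16.1% and 4.38% of distal sites. All motifs were read on both strands, and a match is a description of letters only.

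RefSeq promoters of Fli1 and Ets1 were not used here, although sorted promoter fragments overlapped starts of both. Promoters of the other 3 genes, from RefSeq (GRCm38.p6, minus strand), are shown, each overlapped by sorted promoter fragments. They are Etv2 (chr7:30635803-30636102), Elk3 (chr10:93311110-93311409) and 1 start of Erg (chr16:95459299-95459598). That Erg start lay at Erg_p1, the site positive in most sets among the Erg promoter sites over a start. Erg_p1 held 4 of the 31 distinct fragments at Erg promoter sites. Each of the 3 promoters shown holds 1 ETS match, in capitals, which 41.4% of 32851 RefSeq promoters hold. The table lists 2 further Erg promoters, which hold 0 ETS matches and are not shown.
Etv2 promoter: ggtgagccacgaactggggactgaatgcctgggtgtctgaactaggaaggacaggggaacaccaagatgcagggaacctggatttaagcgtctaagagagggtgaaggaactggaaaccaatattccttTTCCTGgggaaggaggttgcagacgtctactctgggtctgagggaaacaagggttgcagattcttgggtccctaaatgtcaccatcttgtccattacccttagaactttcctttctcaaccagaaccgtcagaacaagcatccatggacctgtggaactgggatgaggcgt
Elk3 promoter: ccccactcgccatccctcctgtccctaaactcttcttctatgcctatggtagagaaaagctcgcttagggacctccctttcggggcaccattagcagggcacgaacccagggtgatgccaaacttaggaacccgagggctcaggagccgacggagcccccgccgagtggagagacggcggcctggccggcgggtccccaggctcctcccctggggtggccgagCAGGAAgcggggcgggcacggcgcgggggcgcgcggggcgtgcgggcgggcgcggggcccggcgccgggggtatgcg
Erg promoter: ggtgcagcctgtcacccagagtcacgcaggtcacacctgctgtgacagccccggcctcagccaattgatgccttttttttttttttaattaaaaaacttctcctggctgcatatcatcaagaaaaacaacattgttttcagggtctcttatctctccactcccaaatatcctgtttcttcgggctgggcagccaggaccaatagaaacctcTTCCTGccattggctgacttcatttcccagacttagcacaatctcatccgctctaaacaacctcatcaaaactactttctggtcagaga

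The depth behind the values differed strongly. The sorted lists hold each distinct fragment once, from 504 to 131036 per library, so a level here is the number of distinct fragments of a locus per 10000 of its set. Positive sets held 99945 to 229660 fragments in replicate 1, 66597 to 197137 in replicate 2, 2308 to 37381 in replicate 3, 2443 to 13261 in replicate 4 and 1552 to 4493 in replicate 5. Of the 25 positive sets, 9 held no Fli1 fragment, 8 no Erg, 1 no Etv2, 8 no Elk3 and 5 no Ets1 fragment, all in replicates 3 to 5. A count of 0 there allowed up to 2.26 to 19.3 fragments per 10000 at Fli1 and 1.03 to 13.7 at Erg (3 counts, counting error only). The median levels in replicates 1 and 2 were 1.11 and 1.74. Of the 25 Negative sets, 13 held no Fli1 fragment, 10 no Erg, 7 no Etv2, 11 no Elk3 and 13 no Ets1 fragment. These too were all in replicates 3 to 5. Values are therefore given first for replicates 1 and 2, and the tests used all 5.

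Libraries of HE1 shared more fragments than others did. Of the smaller list, 83.0% was shared between Low of replicate 4 and Negative of replicate 3, and 78.5% between Medium of replicate 2 and Negative of replicate 1, against 0.329% to 33.4% in the other 142 pairs of HE1 libraries. At HE1, the count of positive sites, the positive levels of replicate 2 and the positive minus Negative differences are given with and without these 4 libraries. Most other values that include them, such as pooled levels, gate medians and ratios to pSKB, are given with them only. A further property touched every stage. Of the distinct fragments of the 5 loci listed at ES, 11% were identical to one in the ES plasmid lists but 38.7% to one in those of HE1 and 38.1% to one in those of HE2. Over all fragments listed at ES these shares were 13.6%, 36.1% and 34.2%. At HB the same-stage share was 9.1%, at HE1 45%, at HE2 27.5% and at HP 9.1%. Over all fragments the same-stage shares were 10.5%, 41.6%, 27.9% and 10.0% from HB to HP. Of the fragments of the 5 loci listed at HE2, 49.5% were identical to one in the HE1 lists, against 48.0% over all fragments. Whether the cells sorted at a stage carried only the library of that stage was not stated in the sources read.

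The loci differed in how much cloned chromatin they held and where. Fli1 (chromosome 9, 32422204 to 32542861, minus strand) had 28 sites, 24 of them distal, with 164 distinct sorted fragments. Erg (chromosome 16, 95359169 to 95586593, minus strand) had 22 sites, 19 of them distal, with 193 fragments. Elk3 (chromosome 10, 93247414 to 93311135, minus strand) had 22 sites, 17 of them distal, with 238 fragments.

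Ets1 (chromosome 9, 32636221 to 32757820, plus strand) had 24 sites, 23 of them distal, with 380 fragments. Etv2 (chromosome 7, 30633616 to 30635852, minus strand) is a short gene in a dense stretch, and its window held 19 other protein-coding genes, 23 sites, of which 17 were promoter sites, and 821 fragments. Only 3 of the Etv2 sites lay nearest to a start of Etv2 itself, against 16 of 28 at Fli1, 14 of 22 at Erg, 12 of 22 at Elk3 and 24 of 24 at Ets1. The Etv2 window is thus largely a reading of its neighbours, and its best represented site, the Kmt2b promoter, held 21.8% of its distinct positive fragments.

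**Figure D1:**
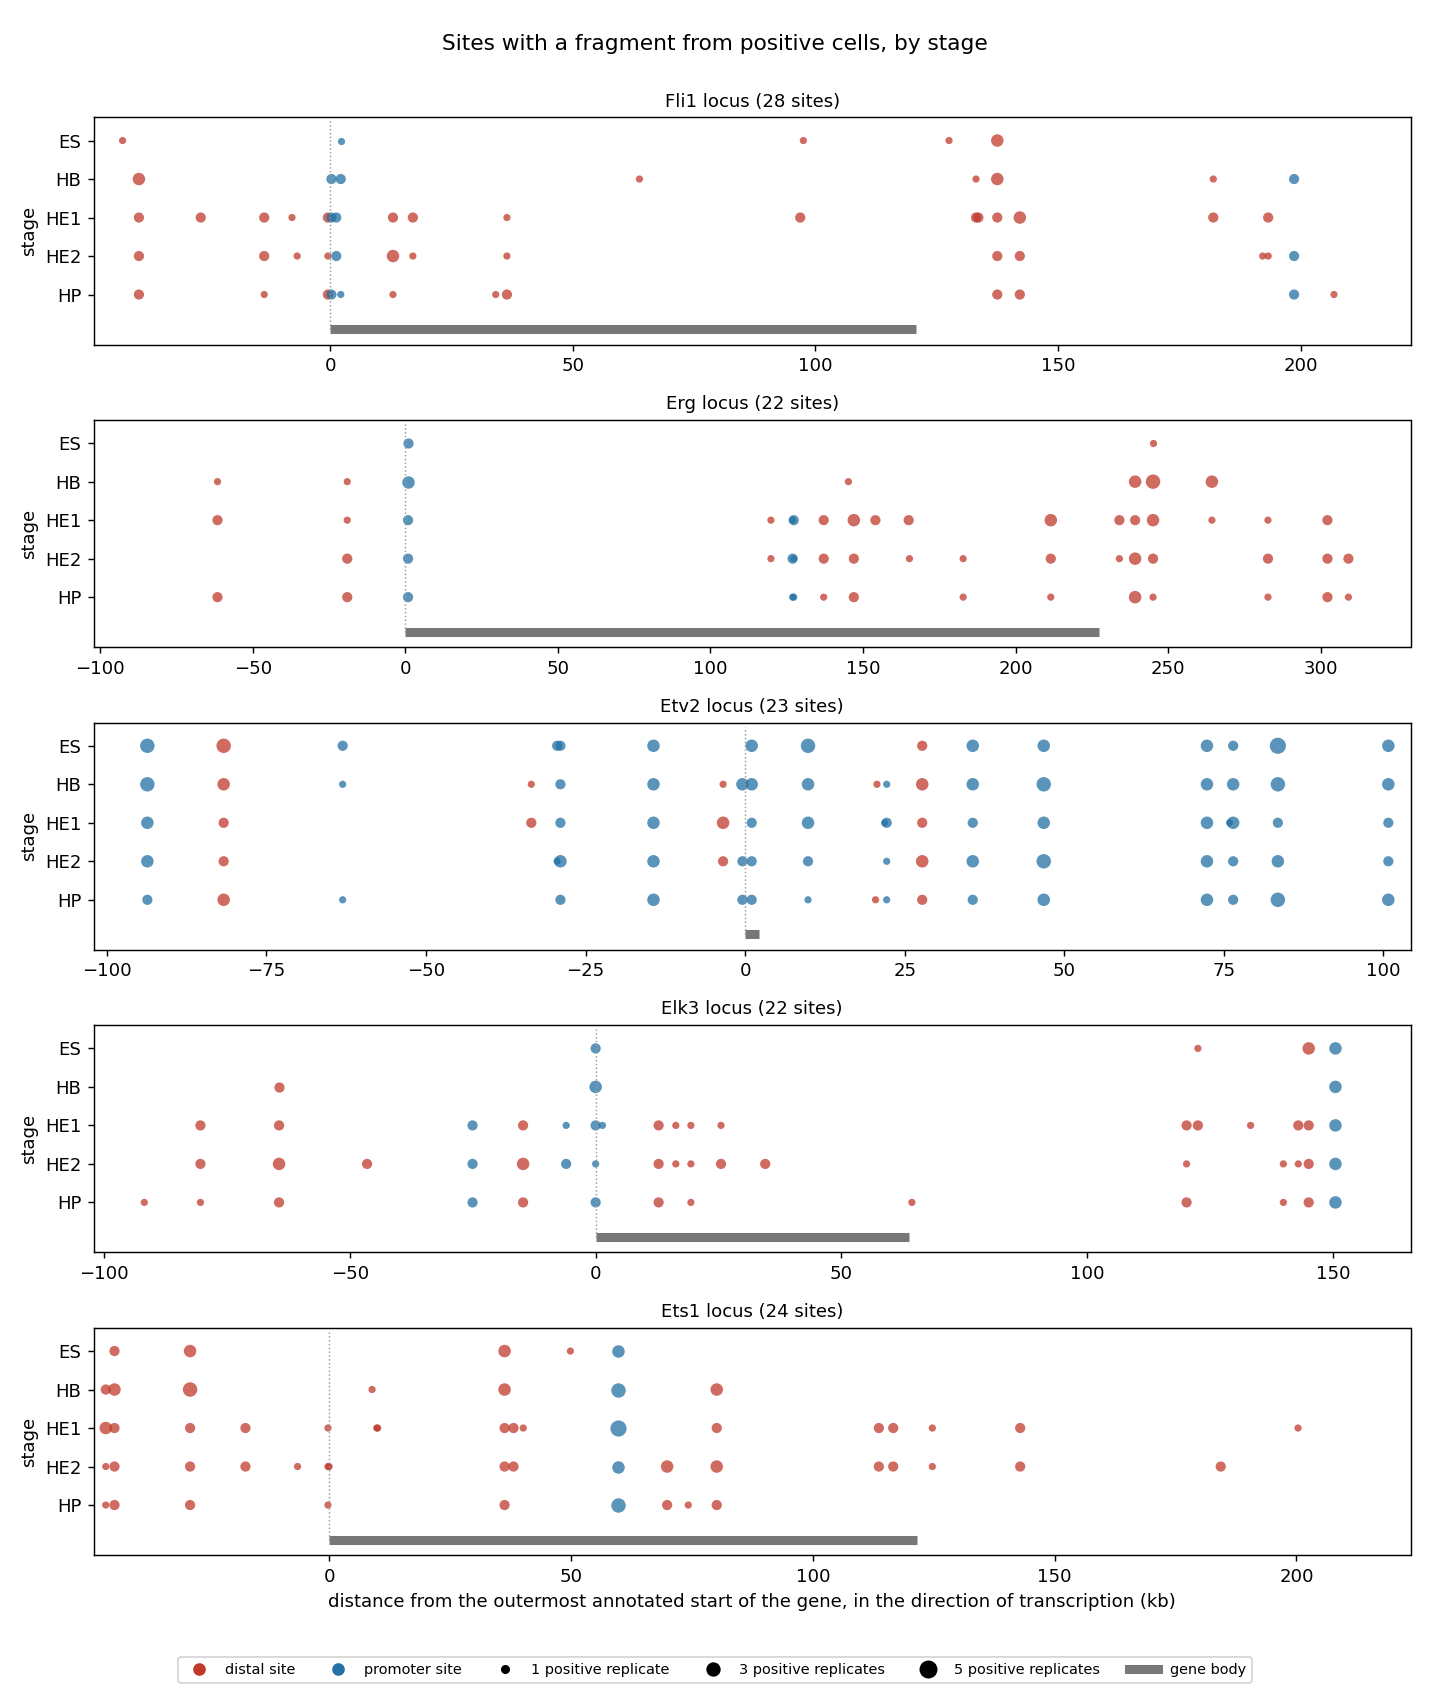
Each point is a site with a fragment from positive cells, placed by its distance from the outermost annotated start of the gene (kb, in the direction of transcription) and by stage (rows), with the area scaled to the number of replicates (1 to 5) and colour for distal (red) or promoter (blue) sites. The grey bar is the gene body. Rows fill from ES to HE1 at Fli1 (5 to 17 sites), Erg (2 to 17), Elk3 (4 to 17) and Ets1 (5 to 17), and are filled from ES on at Etv2 (15 of 23).

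More sites of these loci were listed from positive cells at the hemogenic endothelium stages than at ES. Of the 119 sites, 31 (26.1%) had a positive fragment at ES, 44 (37.0%) at HB, 86 (72.3%) at HE1, 80 (67.2%) at HE2 and 65 (54.6%) at HP. Over all sites of the genome the shares were 39.3%, 46.0%, 57.5%, 55.4% and 49.6%, so these loci were below the genome at ES and HB and above it at the later stages. Without the 4 HE1 libraries, 82 sites were positive at HE1.

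Distal and promoter sites followed the same order against the genome. Of 89 distal sites, 13 (14.6%) were positive at ES, 23 (25.8%) at HB, 61 (68.5%) at HE1, 56 (62.9%) at HE2 and 41 (46.1%) at HP. All distal sites of the genome gave 28.9%, 36.2%, 51.2%, 48.5% and 41.3%. Of the 30 promoter sites, 18 (60%), 21 (70.0%), 25 (83.3%), 24 (80.0%) and 24 (80.0%) were positive at the same stages, against 74.0%, 78.5%, 78.5%, 78.2% and 76.8% of all promoter sites. The gaps to the genome were wider at HE1 and HE2 for distal sites.

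In all, 66 of the 119 sites (55.5%) were positive at HE1, HE2 or HP and at neither ES nor HB, against 38.8% of all sites. Among distal sites these were 58 of 89 (65.2%), against 46.7% of all distal sites. By locus they were 17 of 22 sites at Elk3, 16 of 28 at Fli1, 14 of 22 at Erg, 16 of 24 at Ets1 and 3 of 23 at Etv2. The reverse, positive at ES or HB only, held for 8 sites (6.72%, against 17.9% of all sites). At Etv2, 13 of 23 sites (56.5%) were positive at all 5 stages, against 4 at Ets1, 2 at Erg, 2 at Elk3, 1 at Fli1 and 22.3% of all sites.

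Negative cells followed the same stages. At ES, 88 of the 119 sites (73.9%) had no fragment in any library, Negative included, so every site without a positive fragment at ES was also without a Negative one. At HE1, 32 sites (26.9%) were in no library, against 41.5% of all sites. The deposited lists had been limited by the authors to open chromatin peaks, and the part of that step in which sites appear at which stage was not tested. A site listed at no gate of a stage is thus a site without a reading there and not a site without activity.

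The plasmid lists gave the share of each locus among the cloned fragments. Fli1 made up 0.94 of 10000 pSKB fragments at sites in the ES list and 1.48, 1.85, 1.84 and 1.94 in the lists of HB, HE1, HE2 and HP. Erg made up 0.53, 1.05, 2.01, 2.34 and 1.39 in the same order, and Ets1 1.09, 1.86, 3.01, 2.71 and 2.11. These 3 loci were each lowest in the ES list.

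Elk3 made up 1.24, 0.89, 2.38, 2.01 and 1.56, lowest in the HB list. Etv2 made up 6.38, 6.14, 6.37, 5.83 and 6.40, with little difference between stages. The pDONR lists gave like values, for Erg 0.71, 0.97, 2.19, 2.39 and 1.86. There was 1 list per stage and vector, so these differences have no replicate check.

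The sorted levels in positive cells differed between stages at Fli1, Erg and Elk3 in replicates 1 and 2. At Fli1, positive cells of replicates 1 and 2 held 0.60 and 0.19 fragments per 10000 at ES, 1.31 and 0.74 at HB, 1.39 and 1.83 at HE1, 1.18 and 1.00 at HE2, and 1.03 and 1.20 at HP. Both replicates were lowest at ES. The counts behind these levels were small, from 2 fragments at ES in replicate 2 to 36 at HE1 in replicate 2.

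At Erg the levels were 0.50 and 0.39 at ES, 1.15 and 1.23 at HB, 1.96 and 2.08 at HE1, 1.72 and 2.01 at HE2, and 1.76 and 1.80 at HP. In both replicates ES was lowest and HB next, and the later stages lay between 1.72 and 2.08. At Elk3 they were 1.20 and 0.68 at ES, 0.90 and 1.64 at HB, 2.48 and 2.28 at HE1, 2.46 and 2.08 at HE2, and 1.86 and 1.80 at HP. In these 2 replicates every Elk3 value at the last 3 stages was above every value at ES and HB. Over all 5 replicates the positive values of Elk3 overlapped at each adjacent step. How many windows show such orders of stages in replicates 1 and 2 was not counted, for Elk3 or for Fli1 and Erg.

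Ets1 and Etv2 varied less between stages. Ets1 held 3.10 and 2.52 at ES, 3.29 and 2.71 at HB, 2.92 and 3.35 at HE1, 3.74 and 3.55 at HE2, and 2.84 and 2.85 at HP, with overlap between most stages. Etv2 held 8.50 and 8.42 at ES, 7.56 and 6.81 at HB, 6.31 and 6.34 at HE1, 7.44 and 7.25 at HE2, and 7.75 and 8.11 at HP. Without the shared HE1 libraries, replicate 2 at HE1 was 1.96 for Fli1, 2.31 for Erg, 5.89 for Etv2, 2.19 for Elk3 and 3.92 for Ets1.

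Over all 5 replicates the spread was often as large as the level. The mean positive level of Erg was 0.18 ± 0.25 per 10000 at ES, 2.45 ± 1.92 at HB, 3.82 ± 6.37 at HE1, 2.39 ± 2.40 at HE2 and 2.49 ± 3.69 at HP (SD, n = 5). For Fli1 the means were 0.30 ± 0.33, 0.91 ± 0.64, 1.16 ± 1.14, 0.56 ± 0.55 and 0.89 ± 0.93 in the same order. For Elk3 they were 0.58 ± 0.56, 0.67 ± 0.69, 1.56 ± 1.45, 2.91 ± 3.10 and 2.49 ± 1.89.

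The mean of Ets1 was 1.54 ± 1.45 at ES, 2.52 ± 1.43 at HB, 4.23 ± 3.61 at HE1, 3.23 ± 2.34 at HE2 and 5.92 ± 8.88 at HP (SD, n = 5). That of Etv2 was 8.92 ± 2.85, 8.45 ± 1.51, 5.76 ± 1.87, 6.14 ± 3.45 and 7.51 ± 2.31. Etv2 was the only locus of the 5 whose SD was below its mean at every stage.

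**Figure D2:**
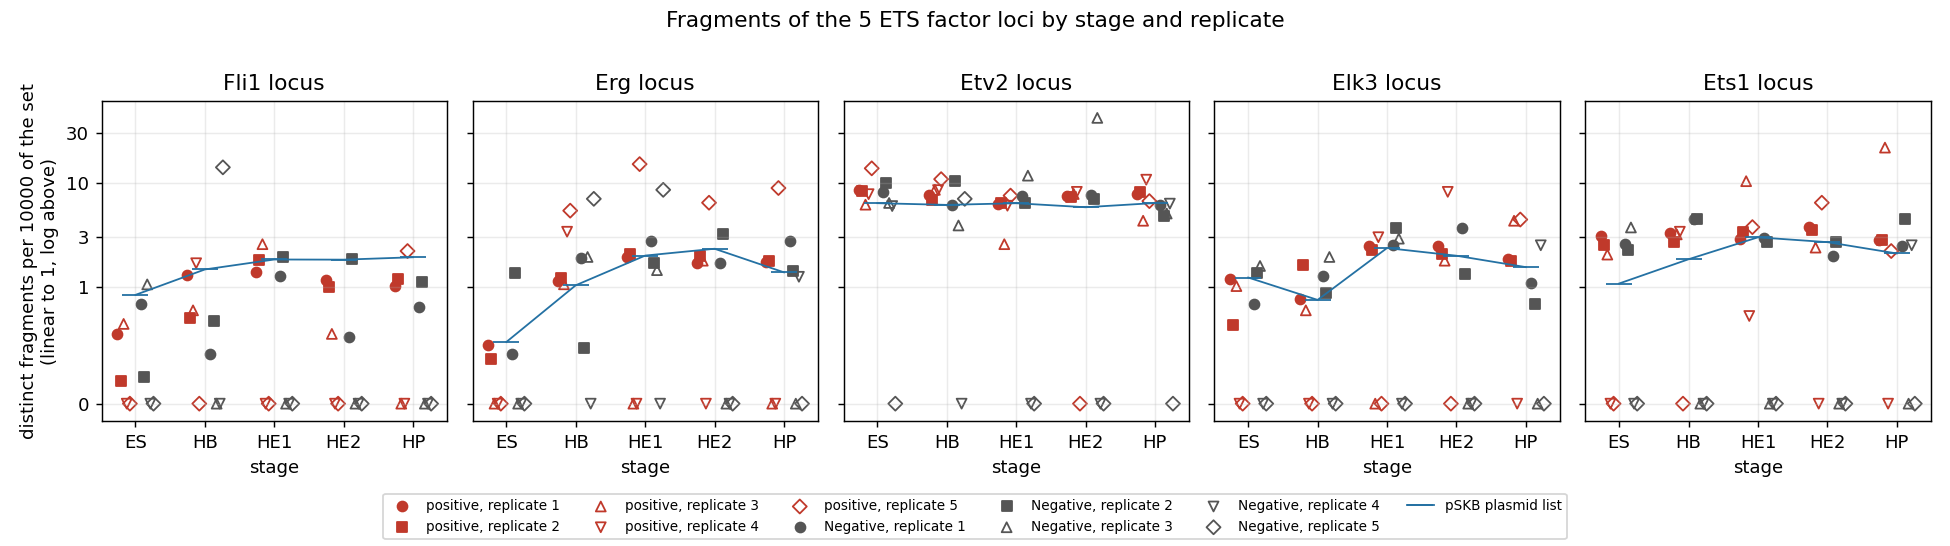
Distinct fragments per 10000 of the set (y, linear to 1 and log above) by stage (x) for each locus, with positive cells in red, Negative cells in grey, a marker per replicate (filled for replicates 1 and 2) and the pSKB list as a blue line. Etv2 lay highest, from 6.31 to 8.50 in positive cells of replicates 1 and 2, and the open markers of replicates 3 to 5 scatter from 0 to 21.7 in positive cells.

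Relative to the reporter library, the loci fell in different places. The mean of positive replicates 1 and 2 was 0.424 to 0.871 times the pSKB level of the same stage at Fli1, and at 0 of 5 stages were both replicates above it. At Ets1 the ratio was 1.04 to 2.58, with both replicates above pSKB at 4 of 5 stages. The ratio was 0.797 to 1.28 at Erg, 0.993 to 1.33 at Etv2 and 0.756 to 1.43 at Elk3. Since fragments sorted at ES, HB and HP were more often identical to plasmid fragments of HE1 and HE2 than to those of their own stage, the same-stage ratio is a description only.

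**Figure D3:**
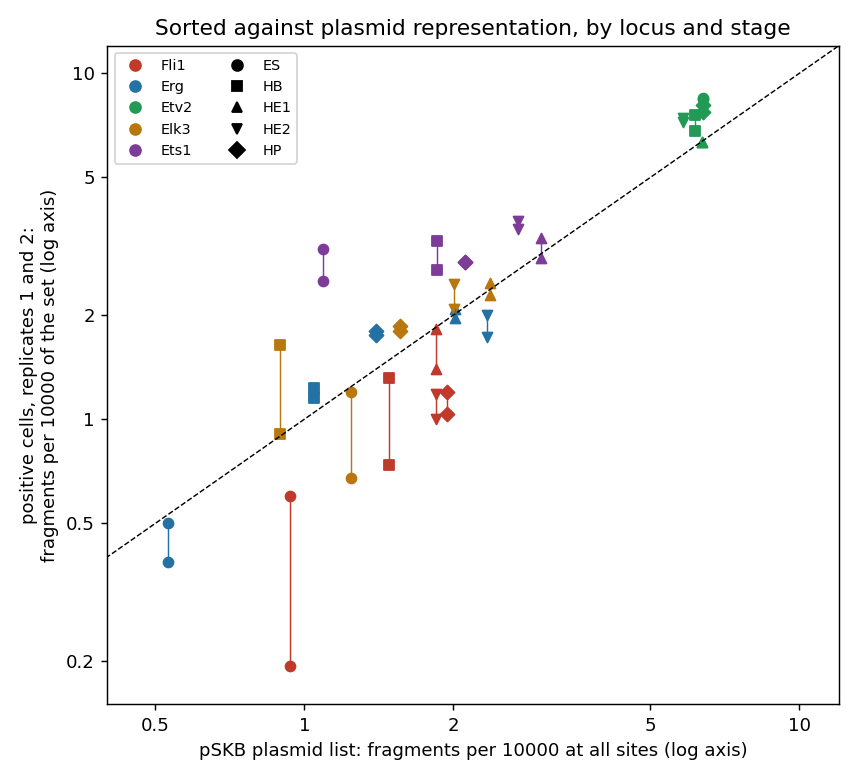
Fragments per 10000 in positive cells of replicates 1 and 2 (y, log axis, joined by a line) against the pSKB list of the same stage (x, log axis), coloured by locus with a marker per stage and a dashed line of equality. Fli1 lies below the line on average at each stage (ratios of 0.424 to 0.871) and Ets1 on or above it (1.04 to 2.58).

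The share of cloned fragments that came back from any sorted cell also differed. At all sites, 947351 of 16138541 distinct plasmid fragments (5.87%, 95% Wilson interval 5.86 to 5.88) were listed with identical ends in a sorted library. Ets1 was above this with 305 of 3984 (7.66%, 6.87 to 8.52) and Etv2 with 672 of 10203 (6.59%, 6.12 to 7.08). Fli1 was below it with 145 of 2957 (4.90%, 4.18 to 5.74).

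The intervals of Erg, 159 of 2937 (5.41%, 4.65 to 6.29), and Elk3, 195 of 3059 (6.37%, 5.56 to 7.30), included the share of all sites. The intervals cover counting error only, and fragments of a site overlap and are not independent. With pSKB alone the order was the same. The recovery was 10.4% at Fli1, 11.5% at Erg, 12.1% at Elk3, 13.3% at Etv2 and 15.2% at Ets1. All sites gave 11.7% there. The Fli1 interval (8.28 to 12.9) included that share, so with pSKB alone Fli1 was not set apart from all sites. The intervals of Erg and Elk3 included it too, and those of Etv2 and Ets1 lay above it. With ends matched within 5 bp, Etv2 (16.2%) and Ets1 (16%) changed places.

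Whether a locus was richer in reporter-positive than in Negative cells was the central comparison. Pooled over all stages and all 5 replicates, positive cells held 1.10 fragments per 10000 at Fli1 against 1.01 in Negative cells, 1.56 against 1.89 at Erg, 7.28 against 7.34 at Etv2, 1.85 against 1.89 at Elk3 and 3.10 against 2.99 at Ets1. Over the 10 sets of replicates 1 and 2, positive levels ran from 0.387 to 2.08 at Erg (median 1.74) and Negative levels from 0.429 to 3.23 (median 1.72). At Ets1 they ran from 2.52 to 3.74 (median 3.01) and from 2.00 to 4.55 (median 2.70). The ranges of positive and Negative sets overlapped at these loci.

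At Fli1 positive levels ran from 0.194 to 1.83 (median 1.11) and Negative levels from 0.227 to 1.97 (median 0.845). At Elk3 the ranges were 0.678 to 2.48 (median 1.83) and 0.854 to 3.71 (median 1.31). At Etv2 they were 6.31 to 8.50 (median 7.5) and 4.84 to 10.5 (median 7.24). Negative sets spread wider at each of these 3 loci as well.

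Negative cells gave the background at each stage. At Erg, Negative cells of replicates 1 and 2 held 0.43 and 1.36 at ES, 1.92 and 0.48 at HB, 2.75 and 1.72 at HE1, 1.71 and 3.23 at HE2, and 2.78 and 1.42 at HP. At Ets1 they held 2.57 and 2.27, 4.48 and 4.53, 2.98 and 2.71, 2.00 and 2.70, and 2.50 and 4.55. Both Ets1 values of Negative cells at HB lay above the positive ones there, while over all 5 replicates the positive and Negative sets overlapped. The share of windows with this order in replicates 1 and 2 was not counted.

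At Fli1 the Negative levels were 0.86 and 0.23 at ES, 0.43 and 0.71 at HB, 1.30 and 1.97 at HE1, 0.57 and 1.89 at HE2, and 0.83 and 1.14 at HP. At Elk3 they were 0.86 and 1.36, 1.28 and 0.95, 2.52 and 3.69, 3.71 and 1.35, and 1.11 and 0.85, highest at HE2 in replicate 1 and at HE1 in replicate 2. At Etv2 they were 8.15 and 9.98, 6.19 and 10.49, 7.48 and 6.40, 7.70 and 7.01, and 6.11 and 4.84.

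With all 5 replicates and stages, no locus passed the test. The mean log2 difference of positive minus Negative, on log2 of fragments per 10000 with 1 added, was 0.77 at Ets1 (SE 0.31, limma, adjusted p = 0.777), 0.70 at Etv2 (SE 0.32, adjusted p = 0.777), 0.28 at Elk3 (SE 0.26, adjusted p = 0.855), 0.23 at Erg (SE 0.28, adjusted p = 0.901) and 0.12 at Fli1 (SE 0.20, adjusted p = 0.935). The 0 of 5 called stood beside 0.0% of 17576 windows called, with 2 of the 5 loci (Ets1 and Etv2) and 1073 windows at an unadjusted p under 0.05 and a median over all windows of 0.17. In replicates 1 and 2 alone, a choice made after the data were seen, the differences were 0.02 at Ets1, 0.02 at Etv2, 0.04 at Elk3, -0.14 at Erg and 0.06 at Fli1.

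The same held stage by stage. The 5 loci ran from -0.14 to 0.80 at ES, -0.18 to 0.89 at HB, -0.14 to 1.36 at HE1, 0.13 to 1.12 at HE2 and 0.38 to 0.87 at HP, with adjusted p-values near 1 and 0 loci under an unadjusted p of 0.05 by limma at any stage. In no stage did the 5 positive values of a locus all lie above or below its 5 Negative values, which 0.347%, 0.592%, 0.159%, 0.358% and 0.387% of windows did. Without the 4 HE1 libraries, the difference at HE1 was 1.85 at Ets1, 1.63 at Etv2, 0.41 at Fli1, -0.05 at Elk3 and -0.11 at Erg, still with 0 loci called. The Negative sets left there were replicates 2, 4 and 5. Replicates 4 and 5 held 1651 and 1169 fragments, with 0 at Ets1 and at Etv2. In Negative replicate 2, Etv2 was at 6.40, against 6.31 and 5.89 in positive replicates 1 and 2. Ets1 was at 2.71, against 2.92 and 3.92.

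**Figure D4:**
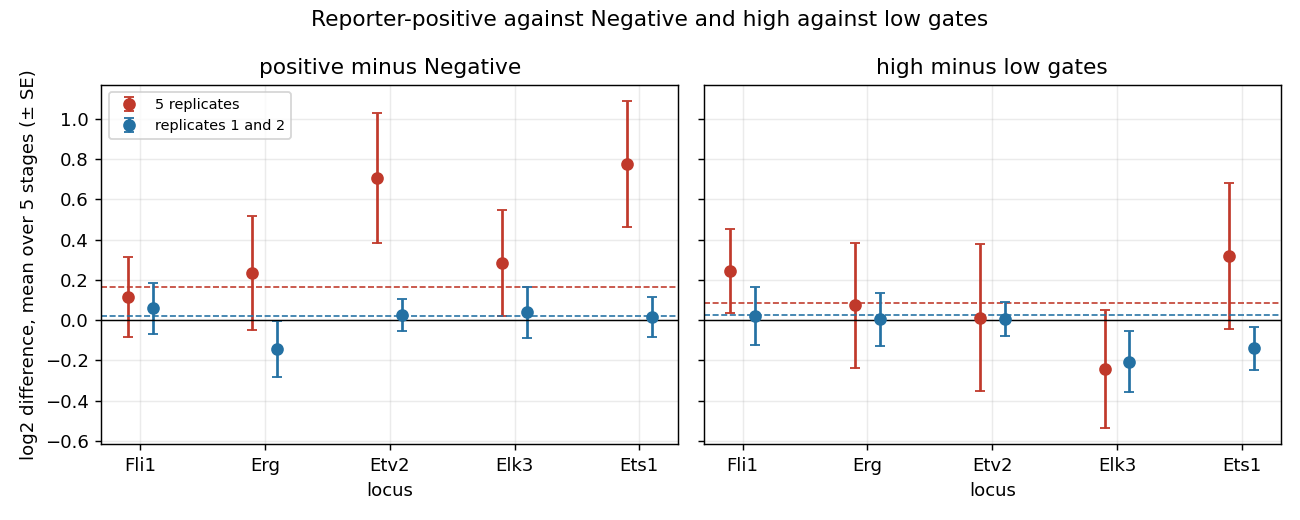
Log2 differences averaged over the 5 stages (y, points with SE bars) for each locus (x), positive minus Negative cells on the left and high minus low gates on the right, with all 5 replicates in red and replicates 1 and 2 in blue and dashed lines at the medians over all windows. Ets1 and Etv2 stand highest on the left with 5 replicates (0.77 and 0.70) and fall to 0.02 each with replicates 1 and 2.

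Brightness among positive cells did not separate the loci either. Pooled over all stages and all 5 replicates, the high set (Medium, High and Medium/High) against the low set (Low) held 1.05 against 1.13 fragments per 10000 at Fli1, 1.62 against 1.59 at Erg, 7.31 against 7.29 at Etv2, 1.66 against 2.23 at Elk3 and 2.99 against 3.40 at Ets1. In replicates 1 and 2 the medians at Elk3 were 1.31 in Negative, 2.38 in Low, 1.76 in Medium and 1.35 in High cells. At Fli1 they were 0.845, 0.938, 0.895 and 1.14 in the same order. At Ets1 they were 2.70, 3.65, 2.94 and 3.05, at Erg 1.72, 1.43, 1.55 and 1.62, and at Etv2 7.24, 7.04, 7.25 and 6.98.

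The mean log2 difference of high minus low was -0.24 at Elk3 (SE 0.29), 0.32 at Ets1 (SE 0.36), 0.24 at Fli1 (SE 0.21), 0.07 at Erg (SE 0.31) and 0.01 at Etv2 (SE 0.36), with 0 loci called by limma beside 0.0% of 17199 windows (532 at an unadjusted p under 0.05). With replicates 1 and 2 alone Ets1 was at -0.14 and Elk3 at -0.21.

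Erg had the largest difference between adjacent stages among the 5 loci. Its 5 positive values at HB were 1.15, 1.23, 1.07, 3.40 and 5.41 per 10000, from 14, 15, 4, 2 and 1 fragments, and at ES 0.50, 0.39, 0, 0 and 0. All HB values lay above all ES values, which happened, in either direction, in 1.28% of windows. The ES counts of 0 in replicates 3 to 5 allowed up to 1.03, 5.83 and 13.7 per 10000, so they do not settle this order. The log2 difference was 1.41 (SE 0.64) and did not pass after adjustment over all windows (limma, adjusted p = 1.00). Erg was among 277 of 17576 windows with an unadjusted p under 0.05, and 0.0% passed.

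HB minus ES was 0.55 at Ets1, 0.52 at Fli1, 0.06 at Elk3 and -0.04 at Etv2. In replicates 1 and 2 alone it was 0.60 at Erg, 0.54 at Fli1, 0.22 at Elk3, 0.07 at Ets1 and -0.21 at Etv2. The later steps ran from -0.53 to 0.49 (HE1 minus HB), from -0.36 to 0.52 (HE2 minus HE1) and from -0.23 to 0.55 (HP minus HE2) over the 5 loci, with 0 called by limma. At no locus were the 5 values of a stage all above or below those of the stage before, as in 1.52%, 0.37% and 0.677% of windows. The change between stages in positive cells minus that in Negative cells passed at 0 loci for any step. At Erg this interaction for HB minus ES was 0.43 (SE 0.90, limma, adjusted p = 1.00).

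Counts of fragments, sets and libraries at single sites are not corrected for depth. In replicate 1, positive sets held 99945 to 229660 fragments and Negative sets 23322 to 131036. Counts of Low and Negative libraries include the shallow replicate 5, which had no separate High or Medium gate. At Erg the distal site Erg_d6 (chromosome 16, 95347059 to 95347761) held the most fragments, 45 distinct ones in positive and 19 in Negative cells, or 26.6% of the distinct positive fragments of the locus. It lies 111835 bp downstream of the nearest Erg start, beyond the end of the gene. The gene start nearest to it is that of Kcnj15, 68217 bp away. In replicates 1 and 2 it had 0 and 0 positive fragments at ES, 6 and 7 at HB, 8 and 13 at HE1, 9 and 6 at HE2, and 8 and 6 at HP. ES was the only stage without a positive fragment in any of the 5 replicates, and Negative cells had none there either. By gate it was in 8 of 20 High, 9 of 20 Medium and 1 of 5 Medium/High libraries. It was also in 9 of 25 Low and 5 of 25 Negative ones. The pSKB lists held 2 fragments of it from ES, 10 from HB, 52 from HE1, 43 from HE2 and 16 from HP.

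Erg_d5 (95340916 to 95342163), 117706 bp downstream, was positive in 11 of 25 sets as well, in 1 replicate at ES, 4 at HB, 3 at HE1, 2 at HE2 and 1 at HP. It was Negative in 5 sets, and the gene start nearest to it was also that of Kcnj15, 62346 bp away. The intronic site Erg_d13 (95438929 to 95440250), 19656 bp downstream of a start, was positive in 3 replicates at HE1, 2 at HE2 and 2 at HP and in none at ES or HB. It was also in 6 Negative sets, 2 at each of those later stages, with 11 distinct Negative fragments against 21 positive ones. Of its pSKB fragments the ES list held 0, the HB list 6, the HE1 and HE2 lists 50 and 48, and the HP list 9. Of the Erg promoter sites over a start, Erg_p1 (95459118 to 95459445) was positive in 4 sets, Negative in 2, and held 3 distinct positive fragments.

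Fli1 fragments were spread over many sites. The best represented, Fli1_d6 (chromosome 9, 32404992 to 32405736), lies 136231 bp downstream of a Fli1 start and 11379 bp from that of Kcnj1, a potassium channel gene. It was positive in 12 of 25 sets, in 3 replicates at ES, 3 at HB and 2 at each later stage, and in 4 Negative sets. Among its libraries were 10 of 20 High, 4 of 20 Medium and 1 of 5 Medium/High ones. There were also 6 of 25 Low and 4 of 25 Negative ones, without correction for depth.

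Fli1_d23 (32581962 to 32582592), 39416 bp upstream, was positive in 9 sets, in 0, 3, 2, 2 and 2 replicates from ES to HP. Fli1_d5 (32400471 to 32400977) was positive in 7 sets, in 3 replicates at HE1, 2 at HE2 and 2 at HP and none before. Fli1_d23 and Fli1_d5 were in 3 and 1 Negative sets, and Fli1_d5 lay 6739 bp from a start of Kcnj1. The promoter site Fli1_p4 (32542197 to 32543008), over the outermost start, was positive in 6 sets, in 0, 2, 2, 0 and 2 replicates, with 11 distinct positive fragments and 1 Negative one.

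At Ets1 the promoter site Ets1_p1 (chromosome 9, 32695526 to 32696516) was over an internal start, within an intron of the longest transcript. It held 110 distinct positive fragments, 31.8% of the locus, and 36 Negative ones, in 19 of 25 positive and 12 of 25 Negative sets. Depth differed, and the whole locus held 496 positive and 157 Negative fragments, counted per set, at levels of 3.10 and 2.99 per 10000. Ets1_p1 was positive in 3, 4, 5, 3 and 4 replicates from ES to HP, the most of the 24 named sites. Its fragments were in 15 of 20 High, 14 of 20 Medium and 2 of 5 Medium/High libraries. They were also in 14 of 25 Low and 12 of 25 Negative ones. The pSKB lists held 31, 59, 95, 74 and 60 of its fragments in that order.

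Ets1_d3 (32607078 to 32607763), 28801 bp upstream of the gene, was positive in 13 sets and Negative in 10. Positive replicates 1 and 2 held 10 and 10 fragments at ES, 11 and 6 at HB, 13 and 26 at HE1, 13 and 7 at HE2, and 4 and 4 at HP. The 26 at HE1 include a library that shared most of its fragments with Negative of replicate 1, which held 20. The intronic Ets1_d11 (32671986 to 32672941) and the upstream Ets1_d2 (32591528 to 32592047) were positive in 12 and 11 sets and at every stage, and Negative in 10 and 9 sets.

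At Elk3 the site with most positive fragments was the promoter of the neighbour Cdk17, a cyclin-dependent kinase gene, with 34.0% of the locus. The promoter of Elk3 itself, Elk3_p3 (chromosome 10, 93310730 to 93311505), was positive in 10 sets, in 2, 3, 2, 1 and 2 replicates, and in 7 Negative sets. Elk3_d15 (93375072 to 93375918), 64360 bp upstream, was positive in 9 sets, with 0 and 0 fragments in replicates 1 and 2 at ES, 2 and 3 at HB, 3 and 3 at HE1, 6 and 3 at HE2, and 5 and 2 at HP. Elk3_d1 (93165632 to 93166603), in an intron of Cdk17, was positive in 9 sets, in 3, 0, 2, 2 and 2 replicates. Elk3_d13 (93325538 to 93326202), 14735 bp upstream, was positive in 2 replicates at HE1, 3 at HE2 and 2 at HP and none before. Elk3_d15, Elk3_d1 and Elk3_d13 were in 5, 3 and 2 Negative sets.

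At Etv2 no promoter site covered the annotated start. The nearest, Etv2_p12 (chromosome 7, 30635921 to 30636619), had its centre 418 bp away and was positive in 7 and Negative in 3 sets. Etv2_p11 (30634397 to 30635239), 1034 bp from the start, was positive in 12 and Negative in 9 sets. Etv2_d6 (30717100 to 30717969), listed as distal, lies in an intron of Atp4a, the gastric proton pump gene, with its centre 298 bp from an annotated Atp4a start.

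Etv2_d6 was positive in 14 sets, with 9 and 5 fragments in replicates 1 and 2 at ES, 8 and 2 at HB, 13 and 12 at HE1, 17 and 12 at HE2, and 18 and 2 at HP, and Negative in 11. Etv2_d1 (30607809 to 30608400), in an intron of the uroplakin gene Upk1a, was positive in 12 sets, in 2, 3, 2, 3 and 2 replicates, and Negative in 4. The distal site nearest to Etv2, Etv2_d4 (30639174 to 30639421), 3445 bp upstream, was positive in 6 sets, in 0, 1, 3, 2 and 0 replicates, and in 1 Negative set.

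Of the 89 distal sites, 28 (31.5%) were listed in no Negative set, against 40.2% of all distal sites. The best represented of these at each locus held few fragments. Ets1_d4 (32618707 to 32619037) and Ets1_d19 (32752693 to 32752984, in a coding exon of Ets1) were each positive in 2 replicates at HE1 and 2 at HE2, with 4 distinct fragments. The libraries of Ets1_d19 were 4 Low ones, and those of Ets1_d4 were 2 Low and 3 Medium ones. Erg_d7 had 5 distinct fragments, Elk3_d8 had 3 and Fli1_d7 had 1. With promoter sites included, 29 of 119 sites (24.4%) had no Negative set, against 33.9% of all sites.

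**Figure D5:**
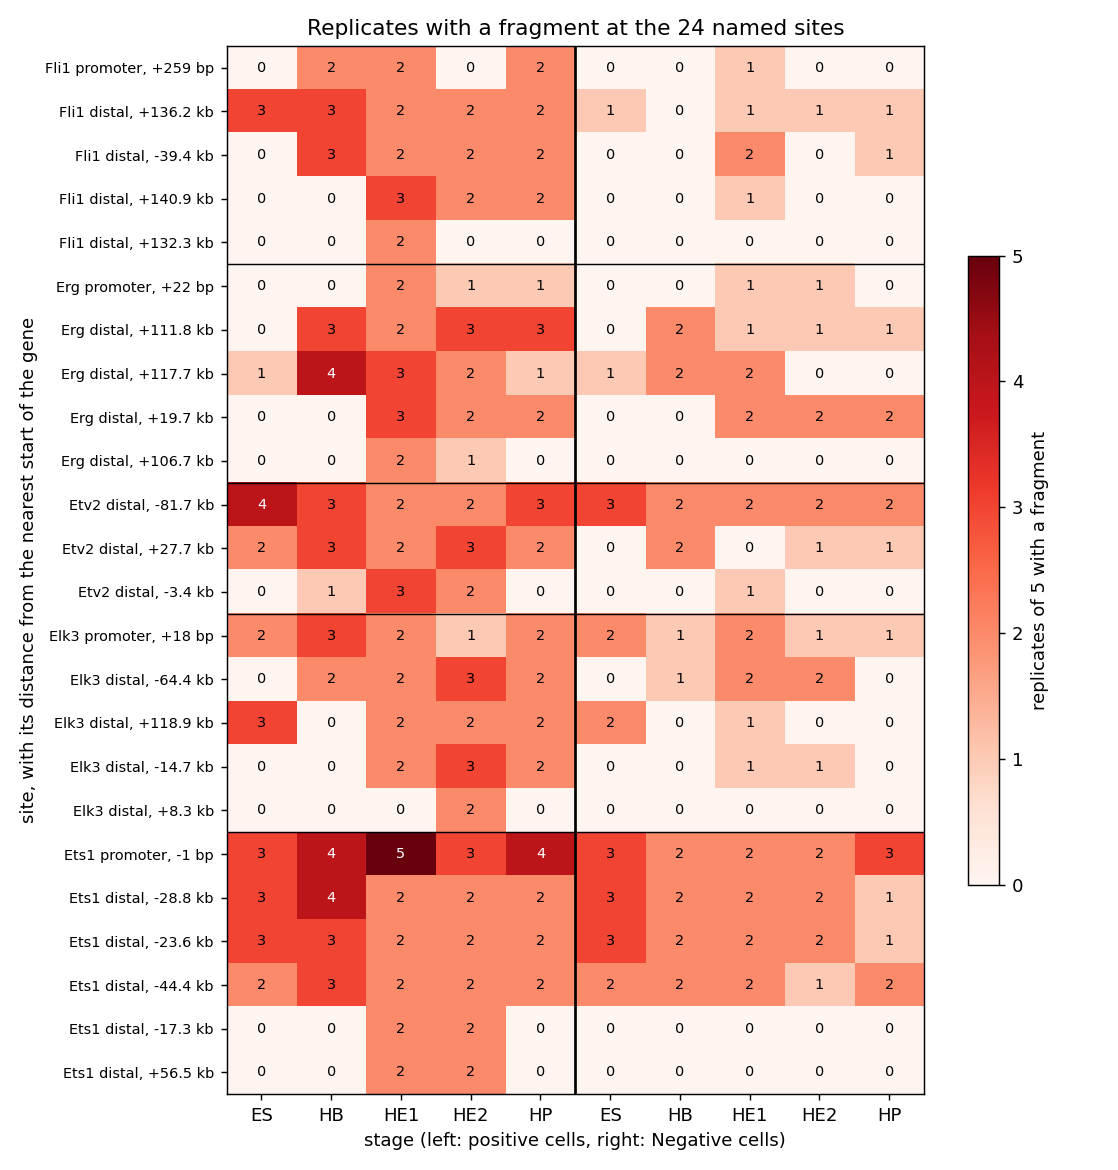
Number of replicates of 5 with a fragment at each of the 24 named sites (rows, with distance from the nearest start of the gene, plus being downstream) by stage, for positive cells on the left and Negative cells on the right. The Ets1 promoter site and the first 3 Ets1 distal sites have entries at every stage, with 5 replicates at HE1 for the promoter site, and the Erg and Elk3 sites are mostly empty at ES.

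No single site of the 5 loci passed a test. Of 22798 sites with fragments in at least 10 of the 50 sets, 32 were members (14 at Etv2, 6 at Erg, 5 at Ets1, 4 at Elk3 and 3 at Fli1). For positive minus Negative over all stages 0.0% of all tested sites were called by limma, with 927 at an unadjusted p under 0.05. Among the members Ets1_p1 had the lowest unadjusted p, with a difference of 0.55 (SE 0.23, adjusted p = 0.960). Between stages, Erg_d13 differed by 0.75 for HE1 minus HB (SE 0.30, adjusted p = 0.681) and Fli1_d23 by 0.17 for HB minus ES (adjusted p = 0.728), where 0.0175% of all sites were called. Within ES 0.00439% of all sites were called for positive minus Negative and 0.00481% for high minus low, and no member. For high minus low gates, 31 member sites of 20805 were tested and 0 called, beside 0.0% of all and 663 at an unadjusted p under 0.05.

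The other ETS genes of the mouse were read in the same way. Of 21 listed, 20 could be tested for positive against Negative cells and 0 passed, with a median difference of 0.19 (from -0.24 to 0.61) and 15 of 20 above 0. None was under an unadjusted p of 0.05 in the mean over stages. For single stages or steps that level was reached by Etv3 at ES for positive minus Negative (-1.32), Etv1 for HE1 minus HB (0.84), Erf for high minus low at HB (-1.58) and Etv5 for high minus low at HP (-1.54), none of them past adjustment by limma. Erf is a repressor of the family, and Etv1 and Etv5 belong to its PEA3 group.

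Over the 25 positive sets the 5 loci did not follow each other closely. The highest Pearson r between the loci was 0.43 for Ets1 and Fli1, and the lowest was -0.55 for Ets1 and Etv2. Windows on other chromosomes came closer, with Rnf6 at 0.91 to Fli1, Tob1 at 0.83 to Erg, Tnip1 at 0.90 to Etv2, Chrdl2 at 0.92 to Elk3 and Fahd2a at 0.92 to Ets1. These were the most similar of the tested windows on other chromosomes, and the 25 points share libraries and the shallow sets of replicates 3 to 5.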

How the data were processed

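The deposited lists of 95 sorted libraries give intervals only (chromosome, start and end), each distinct fragment once and with no count or other measured value, per the files. The plasmid and HM-1 control lists were deposited with a whole-number count of reads per fragment, which was used for depth only. According to the methods, the authors trimmed reads with Trim Galore, mapped them to mm10 with Bowtie2, processed them with SAMtools, bedtools and HOMER (versions are not given in the sources used here), filtered fragments against the HM-1 control, the plasmid lists and open chromatin peaks, and called fragments over 1500 bp from a start distal. A PCR step and the removal of duplicates mean that abundance in cells is not measured.

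Sorted starts were aligned to the plasmid convention: 83.5% of sorted fragments were then identical to a plasmid fragment, against 3.73% as deposited, and 0.680% to an HM-1 control fragment. Of 2288814 listed fragments, 1042 on other sequences were left out. Groups came from the sample labels. Sets were compared by limma 3.58.1 in R 4.3.3 (lmFit, eBayes with trend) on log2 of distinct fragments per 10000 of the set plus a pseudocount of 1, over 50 sets (5 stages, 5 replicates, positive and Negative, or high and low) with a mean per stage and set. Windows of protein-coding genes needed a fragment in at least 20 sets and sites in at least 10, with Benjamini-Hochberg adjustment over all tested and a threshold of 0.05. The code was tested on simulated data.

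The members and lists were chosen with earlier results of these data known. Named sites of a locus were the promoter site over a start positive in most sets, the 3 distal sites positive in most sets and the distal site positive in most sets among those in no Negative set. Fragments of 5 loci identical to an HM-1 control fragment were kept. Alternatives were the pseudocount, the filter, the window, the fragment class, fragments identical to a plasmid, the replicate block, each replicate left out, replicates 1 and 2 alone, and the 4 HE1 libraries left out. RefSeq promoters of Fli1 and Ets1 were not used here.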

Additional observations from a re-analysis of the deposited data

Results flagged for a closer look

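Of 50 groups of 5 replicates (5 loci, 5 stages, positive and Negative), 9 held a replicate that stood apart from the other 4 by Dixon's test at the 95% level. For normal values of equal spread, chance alone marks about 1 of 20 groups. The sets of a group differ widely in depth, so the 9 cannot be set against that rate. All 9 lay in replicates 3 to 5, whose sets hold few fragments, and each rests on 5 fragments or fewer.

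At Erg, replicate 5 stood high in positive cells of HE1 at 15.1 per 10000 (4 of 2655 fragments), in positive cells of HP at 8.90 (4 of 4493) and in Negative cells of HB at 7.02 (1 of 1425). At Ets1, replicate 3 stood high in positive cells of HP at 21.7 (5 of 2308), and replicate 5 stood low in positive cells of HB at 0 (0 of 1848).

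At Fli1, replicate 5 stood high in Negative cells of HB at 14 (2 of 1425). At Etv2, replicate 3 stood high in Negative cells of HE2 at 41.7 (3 of 720), and replicate 5 stood low at 0 in positive cells of HE2 (0 of 1552) and in Negative cells of HP (0 of 818). The part of depth in these values was not tested.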

How the results depend on the processing

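Of 230 single-locus settings, 206 kept the direction and 24 reversed it, and no locus was called in any. Of 180 counts and percentages, 169 stayed within their limits and 11 moved. The recoveries made up 10 of those. With pSKB alone these were 10.4% (Fli1), 11.5% (Erg), 13.3% (Etv2), 12.1% (Elk3) and 15.2% (Ets1), and with ends within 5 bp 6.83%, 9.36%, 16.2%, 11.4% and 16%. The other was the count of member sites called between adjacent stages, 1 with replicates 1 and 2 only, an alternative chosen after seeing the data.

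Directions reversed where the difference was small. Positive minus Negative became -0.14 at Fli1 and -0.11 at Erg with promoter fragments only, and -0.14 at Erg with replicates 1 and 2. High minus low became -0.069 at Fli1 with promoter fragments only, -0.14 at Ets1 with replicates 1 and 2, and at Etv2 -0.0051 without the 4 HE1 libraries, -0.71 with distal fragments, -0.15 with 50 kb on each side, -0.016 with sites counted and -0.32 without Medium. HB minus ES became 0.18 (fragments identical to a plasmid), 0.11 (promoter fragments) and 0.58 (50 kb) at Etv2, and -0.24 (distal fragments) and -0.027 (sites counted) at Elk3. The causes were not tested.

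Leaving out each replicate in turn, positive minus Negative ran from -0.0098 to 0.26 at Fli1, -0.040 to 0.35 at Erg, 0.36 to 1.05 at Etv2, 0.18 to 0.36 at Elk3 and 0.41 to 0.99 at Ets1. High minus low ran from 0.095 to 0.33, -0.038 to 0.11, -0.15 to 0.24, -0.28 to -0.21 and 0.079 to 0.44, and HB minus ES from 0.29 to 0.65, 1.10 to 1.64, -0.16 to 0.027, -0.095 to 0.12 and 0.15 to 0.69, in the same order. Sites positive ran from 26 to 31 at ES, 39 to 44 at HB, 74 to 86 at HE1, 63 to 80 at HE2 and 44 to 65 at HP, and with at least 2 fragments were 24, 36, 70, 59 and 48.

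Deviations of same-numbered sets correlated above 0 in 69 of 70 cases and above 0.1 in 55, but above 0.1 in every replicate in 2 of 14 comparisons, with 14 of the 15 misses in replicates 3 and 5. By that last count the fits were kept without a block, although sets of a number shared deviations. With the replicate block no locus was called, and the adjusted p of positive against Negative was 0.404 at Ets1 (difference 0.77) and 0.436 at Etv2 (0.70). Depth limits the loci with few fragments most: a positive set with no fragment of the locus allowed up to 2.26 to 19.3 per 10000 at Fli1 and 5.10 to 19.3 at Elk3.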

Other observations

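With replicates 1 and 2 alone, a choice made after seeing the data, the intronic site Ets1_d12 (chromosome 9, 32673978 to 32674642, mm10) was called by limma at HE2, with 0.48 for positive minus Negative (SE 0.06, adjusted p = 0.00509) and -0.48 for HP minus HE2 (adjusted p = 0.00136). These settings called 0.492% and 0.518% of 38603 sites. The site held 8 and 5 fragments in positive cells of HE2 in replicates 1 and 2, 3 and 2 at HE1, and 0 in positive cells of the other stages and in Negative cells of HE2. It was in no set of replicates 3 to 5, and over all 5 replicates it was in too few sets to be tested. In replicates 1 and 2 its fragments came only from HE1 and HE2, so it passed the filter through the stages where it was high. Groups at 0 have no spread and lower the pooled SE, so these p-values lend the difference no support.

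A few sorted fragments of the loci were identical to fragments of the HM-1 PCR control. These were 3 distinct fragments at Etv2 (24 entries in the lists), 2 at Elk3 (3 entries), 2 at Ets1 (5 entries) and 0 at Fli1 and Erg. By deposited class, 5 of the 89 distal sites had their centre within 1500 bp of a protein-coding start in GENCODE, and 2 of the 30 promoter sites lay farther away.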
